A study of Mus musculus with 17 samples.

Results

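The genes described here encode the kinase CDK9 with its partners and regulators and the paired bromodomain ATPases ATAD2 and ATAD2B. There are 8 of them (Cdk9, Ccnt1, Ccnt2, Hexim1, Larp7, Aff4, Atad2 and Atad2b), found by symbol among 36293 genes in the bulk files and 37608 genes in the single-nucleus tables. They were chosen by the fold changes in layer 2/3 neuronal nuclei, in which Cdk9 was higher and Atad2 was lower after stress, together with genes of the same complex or family, so that comparison is given as a description. Adult male C57BL/6 mice (C57Bl/6J in the methods) received chronic unpredictable stress (CUS), with 3 stressors per day for 12 days from 9 to 10 weeks of age, while controls were handled daily and housed in a separate room. The labels give no genetic change or drug for either group. Bulk nuclear RNA from the medial prefrontal cortex (mPFC) was sequenced for 4 control and 5 CUS mice, labelled as postnatal day 90, and single nuclei of the neocortex were sequenced by sNucDrop-seq for 4 control and 4 CUS mice, labelled as postnatal day 80.

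CDK9 binds a cyclin T, encoded by Ccnt1 or Ccnt2, to form P-TEFb, the kinase that phosphorylates RNA polymerase II and the factors that hold it near promoters, which releases the polymerase into elongation. Much of P-TEFb is kept inactive by HEXIM1 on the 7SK small nuclear RNA, which LARP7 protects, and AFF4 is the scaffold of the super elongation complex that brings active P-TEFb to genes. In neurons this release step is known for the rapid induction of activity-regulated genes. ATAD2 binds acetylated histones and is best known from dividing cells, and ATAD2B is its close relative.

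Bulk libraries held 26188825 to 30525015 reads in genes. Of 40000 barcodes, 26698 nuclei were kept, with 1935 to 4235 nuclei and 4699542 to 12477099 unique molecular identifiers (UMIs) per mouse, and 20 barcode sequences occurred in more than 1 library. Nuclei fell into 25 classes of over 200 nuclei, and none of the 8 genes was among the variable genes used for clustering. The 3691 nuclei called layer 2/3 had 6 of 6 fixed markers (Cux2, Rasgrf2, Calb1, Enpp2, Cux1 and Otof) enriched. On the first principal component of all nuclei summed, which held 41.8% of the variance, CUS mouse 1 had a score of 16.6 while the other mice lay between -8.31 and 6.42.

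Promoter windows (250 bases before to 50 after the RefSeq start, GRCm38.p6) were listed for 7 of the 8 genes, all but Atad2. They are shown for Cdk9, which was higher in layer 2/3 nuclei of CUS mice, and for Aff4 and Atad2b, which had the lowest unadjusted p-values of the 8 genes in bulk. Capitals mark an ETS-type CCGGAAG in Cdk9, an E-box CACGTG in Aff4 and a cyclic AMP response element TGACGTCA in Atad2b.
Cdk9, chr2:32712735-32713034, minus strand: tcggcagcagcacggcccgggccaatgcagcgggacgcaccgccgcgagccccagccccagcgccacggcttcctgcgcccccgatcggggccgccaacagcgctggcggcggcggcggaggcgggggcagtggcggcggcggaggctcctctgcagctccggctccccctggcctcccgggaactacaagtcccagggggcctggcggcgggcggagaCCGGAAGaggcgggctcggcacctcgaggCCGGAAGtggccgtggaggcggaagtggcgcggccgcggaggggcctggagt
Aff4, chr11:53350517-53350816, plus strand: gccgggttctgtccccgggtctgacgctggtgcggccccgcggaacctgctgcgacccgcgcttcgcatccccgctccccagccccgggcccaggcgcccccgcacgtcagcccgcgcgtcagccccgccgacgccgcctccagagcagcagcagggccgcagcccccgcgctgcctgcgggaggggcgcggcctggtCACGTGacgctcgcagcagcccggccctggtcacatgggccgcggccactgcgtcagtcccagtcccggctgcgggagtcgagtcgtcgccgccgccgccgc
Atad2b, chr12:4917103-4917402, plus strand: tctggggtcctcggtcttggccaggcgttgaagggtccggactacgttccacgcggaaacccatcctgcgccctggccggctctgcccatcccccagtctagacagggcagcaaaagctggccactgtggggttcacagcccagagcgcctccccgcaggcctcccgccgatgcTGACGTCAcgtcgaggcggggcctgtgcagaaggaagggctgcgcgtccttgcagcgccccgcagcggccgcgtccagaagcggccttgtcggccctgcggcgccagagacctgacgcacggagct

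All 3 windows were rich in G and C (78.3% for Cdk9, 79.0% for Aff4 and 69.7% for Atad2b, against a median of 52.7% over 32851 promoters). Searched on both strands, CCGGAAG was found in 8.86% of all promoters and in those of Cdk9 (twin matches, beginning 31 and 2 bases before the RefSeq start) and Ccnt1. The Cdk9 window lies wholly inside the gene span used for bulk (chr2:32705784-32713076), whose start differs from the RefSeq start. CACGTG was present in 7.15% of promoters and, among the 7 genes, in Aff4 alone. TGACGTCA was present in 1.79% of promoters and in those of Larp7 and Atad2b. The letters of the YY1 core, searched as ATGGCGG (4.05% of promoters) and CCATNTT (16.1%), were in none of the 7 windows. GGGCGG was in 5 of the 7 windows and in 35.7% of all promoters, CCAAT was in 4 of 7 and 37.4%, and TATAAA was in 0 of 7 and 13.6%.

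The bulk mice are not the mice whose values chose the genes, although earlier results of the bulk data were also known. None of the 8 genes passed a false discovery rate (FDR) of 0.05 in edgeR's quasi-likelihood test, where 3.29% of 18394 genes did (1.16% higher and 2.13% lower in CUS mice). At an unadjusted p under 0.05, 2 of the 8 passed (21.5% of all genes), Aff4 and Atad2b, both lower in CUS mice. The likelihood ratio test called 1 of the 8, Atad2b (7.23% of all genes), and DESeq2 called 2, Aff4 and Atad2b (8.27%). In bulk tissue, fewer cells of a type cannot be told apart from less RNA per cell.

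The kinase itself differed little. Cdk9 (ENSMUSG00000009555, chr2:32705784-32713076, minus strand) had 22.3, 21.9, 23.8 and 19.9 CPM (counts per 1e6 reads of the genes tested, after TMM scaling) in controls and 24.0, 22.4, 23.6, 23.4 and 27.7 CPM in CUS mice. The groups overlapped, although all 5 CUS mice were above the control mean. The log2 fold change of CUS over control was 0.14 ± 0.07 (SE, FDR = 0.293, edgeR quasi-likelihood test), with a normal 95% interval from -0.00 to 0.29, and the exact permutation test gave p = 0.0794 (two-sided, n = 4 and 5, smallest possible p = 0.00794). Without CUS mouse 5 it was 0.09. Mir3960 and Mir2861 lie inside Cdk9 on the same strand, each with at most 2 reads per mouse.

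Neither cyclin subunit passed the test. Ccnt1 (ENSMUSG00000011960, chr15:98538689-98570923, minus strand) measured 44.1, 45.2, 42.8 and 47.7 CPM in controls and 41.2, 41.4, 43.2, 41.98 and 42.3 CPM in CUS mice, each CUS value lying under the mean of the controls. Its log2 fold change was -0.10 ± 0.05 (SE, FDR = 0.284, edgeR; -0.06 without control mouse 4) and the exact permutation p was 0.0159 (two-sided, unadjusted). An antisense transcript, 9330020H09Rik, overlaps Ccnt1 over 2260 bases, with 37 to 62 reads per mouse. Ccnt2 (ENSMUSG00000026349, chr1:127774164-127808061, plus strand) lay between 109 and 119 CPM in controls and between 112 and 124 CPM in CUS mice, with a log2 fold change of 0.05 ± 0.05 (SE, FDR = 0.663, edgeR) and a range from 0.02 to 0.08 when 1 mouse was left out.

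The inhibitory arm was measured at low depth. Hexim1 (ENSMUSG00000048878, chr11:103116231-103119725, plus strand), a gene of a single exon, had 97 to 172 reads per control mouse and 134 to 197 reads per CUS mouse, or 5.02 ± 1.19 CPM (SD, n = 4) and 5.88 ± 0.70 CPM (SD, n = 5). Larp7 (ENSMUSG00000027968, chr3:127536714-127553349, minus strand) measured 6.22 ± 0.98 CPM (SD, n = 4) in controls and 6.00 ± 0.99 CPM (SD, n = 5) in CUS mice. The log2 fold changes were 0.23 ± 0.15 for Hexim1 and -0.05 ± 0.14 for Larp7 (SE, FDR = 0.409 and 0.867, edgeR). Hexim1 had 0.11 without control mouse 1 and 0.36 without control mouse 3. The miR-302 family members and Mir367, inside Larp7 on the other strand, had 0 reads in every mouse.

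Aff4 (ENSMUSG00000049470, chr11:53350833-53421830, plus strand) had 182, 192, 171 and 175 CPM in controls and 153, 163, 166, 157 and 153 CPM in CUS mice. Every CUS mouse was below every control mouse, and groups failed to overlap for 8.76% of all genes, 4.7% lower and 4.06% higher. The log2 fold change was -0.19 ± 0.05 (SE, FDR = 0.073, edgeR), and the exact permutation p was 0.00794, the smallest the design allows. Among the 8 genes, the groups failed to overlap for Aff4 alone. Inside Aff4 on the same strand lie Gm25930, with 2 to 11 reads per mouse, and Mir6920, with 9 to 30, and Gm23167 inside Atad2b had 0.

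The ATAD2 pair was lower in CUS mice on average. Atad2b (ENSMUSG00000052812, chr12:4917353-5047394, plus strand) had 95.1, 97.3, 89.1 and 92.1 CPM in controls and 78.3, 89.8, 83.0, 75.7 and 76.1 CPM in CUS mice. CUS mouse 2 reached into the control range, and the other 4 CUS mice were below it. The log2 fold change of Atad2b was -0.21 ± 0.06 (SE, FDR = 0.0699, edgeR; exact permutation p = 0.0238). Atad2 (ENSMUSG00000022360, chr15:58094044-58135082, minus strand) had 18.0, 15.6, 15.5 and 14.4 CPM in controls and 14.6, 15.9, 15.6, 12.9 and 13.9 CPM in CUS mice, which overlapped. Its log2 fold change was -0.12 ± 0.08 (SE, FDR = 0.43, edgeR), with a normal 95% interval from -0.29 to 0.04. It was -0.06 without control mouse 1 and -0.08 without CUS mouse 4.

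**Figure D1:**
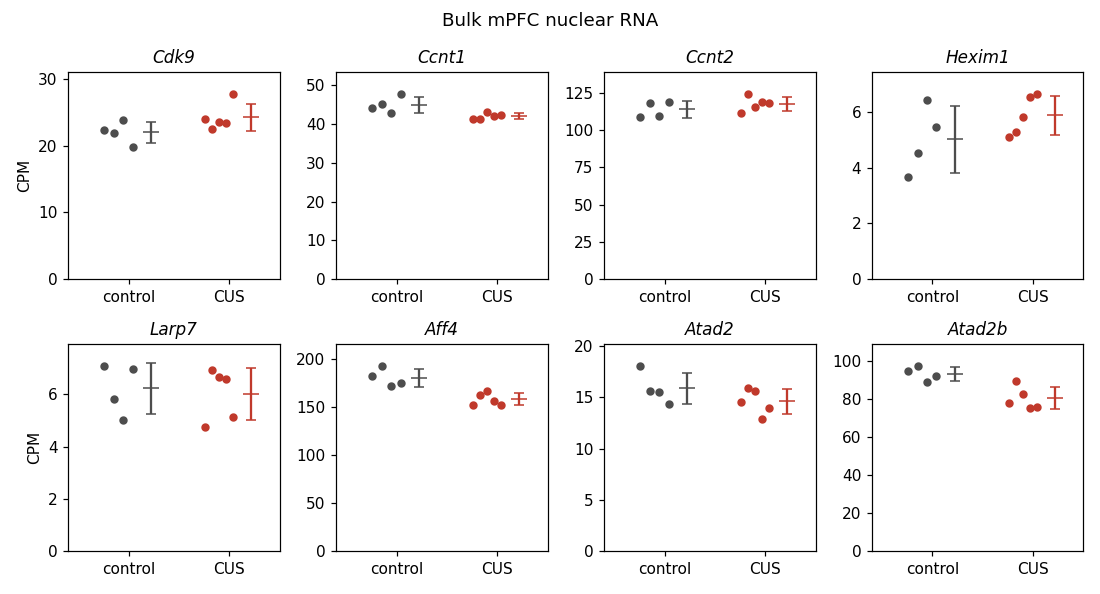
CPM of the 8 genes in bulk mPFC nuclear RNA, with 1 point per mouse (4 control, 5 CUS) and the mean ± SD beside the points. The CUS points of Aff4 lie below all control points, those of Atad2b do so in 4 of 5 mice, and the other genes overlap.

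Marker sums of some cell types did not overlap between the bulk groups, while the sums of most lists did. For single genes, the groups did not overlap for 8.76% of those tested. The 7 layer 5 markers summed to 1262 to 1673 CPM in controls and 1750 to 1843 CPM in CUS mice, the 3 markers of the Ndst4 class to 99.3 to 251 CPM and 63.3 to 83.3 CPM, and the 8 oligodendrocyte precursor markers to 1132 to 1378 CPM and 1435 to 1582 CPM, although 6 of these 8 were lower in CUS mice. No marker of these lists was at 0 in every mouse, and their part in the lower Aff4 and Atad2b was not tested.

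Per kilobase, the order of the genes in bulk depended on the length used. Both lengths are given, because the sources do not say whether intronic reads were counted. Per kilobase of gene span, Ccnt2 (3.42 ± 0.15 CPM per kb, SD, n = 9) and Cdk9 (3.19 ± 0.29) were highest and Atad2 (0.37 ± 0.04) and Larp7 (0.37 ± 0.06) lowest. Per kilobase of annotated exon, Aff4 (12.5 ± 1.01 CPM per kb) and Ccnt2 (9.40 ± 0.41) were highest and Atad2 (0.95 ± 0.09) was lowest.

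In layer 2/3 nuclei, the values that chose the genes were larger. Cdk9 had 49.4, 35.6, 35.3 and 36.0 CPM (here per 1e6 UMIs of the genes tested in the class, after TMM scaling) in controls and 112, 61.3, 56.5 and 57.7 CPM in CUS mice, from 24 to 129 UMIs per mouse. All 4 CUS mice were above all controls, with CUS mouse 1 far above the other CUS mice. The log2 fold change was 0.91 ± 0.22 (SE), and 0.60 ± 0.18 without CUS mouse 1. Atad2 had 93.6, 77.9, 90.8 and 88.4 CPM in controls and 40.0, 55.1, 45.4 and 56.0 CPM in CUS mice, from 45 to 157 UMIs per mouse. All CUS mice were below all controls, and the log2 fold change was -0.82 ± 0.16 (SE). These 2 genes were the ones called among the 7 that passed the minimum of UMIs at 10% of the nuclei, beside 0.875% of 5370 genes at an FDR of 0.2. The last gene inside that threshold was Fmr1 (log2 fold change -0.47) and the first outside it was Cd2ap (-0.48). When controls 2, 3 or 4 or CUS mouse 1 were left out, Cdk9 was no longer past the threshold and Atad2 still was.

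The other subunits in layer 2/3 nuclei are given as values. Atad2b had 126, 129, 132 and 130 CPM in controls and 80.9, 113, 122 and 108 CPM in CUS mice, a log2 fold change of -0.29 ± 0.14 (SE). Ccnt1 had 69.5, 71.3, 76.3 and 82.4 CPM in controls and 64.4, 63.7, 47.4 and 65.2 CPM in CUS mice, a log2 fold change of -0.30 ± 0.16 (SE). In both genes all CUS mice were below all controls, so that with Cdk9 and Atad2 the groups did not overlap for 4 of the 7 genes, beside 5.4% of all genes tested (2.76% lower and 2.64% higher). Since this contrast chose the genes, nothing is read from that count. Without CUS mouse 1, the log2 fold change of Atad2b was -0.19. Ccnt2 (0.17 ± 0.16, or 0.04 without CUS mouse 1 and 0.05 without control mouse 3), Aff4 (-0.11 ± 0.18) and Larp7 (-0.06 ± 0.20, log2 fold change and SE) overlapped between groups. Hexim1, with 229 UMIs in all, did not pass the minimum and measured 26.3 ± 7.49 CPM in controls and 24.96 ± 2.90 CPM in CUS mice (SD, n = 4 each).

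**Figure D2:**
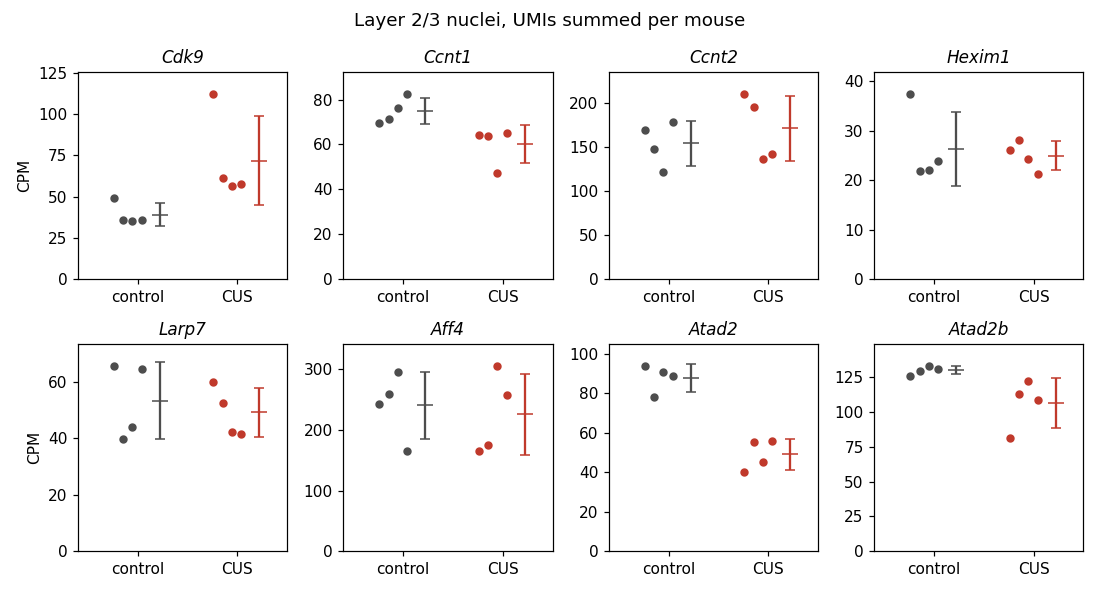
CPM of the 8 genes in layer 2/3 nuclei, with UMIs summed per mouse (4 control, 4 CUS) and the mean ± SD beside the points. Cdk9 lies higher, and Atad2, Atad2b and Ccnt1 lie lower, in every CUS mouse than in every control; these values chose the genes.

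Markers of most other cell types overlapped between the groups in these nuclei. The exception was the choroid plexus list, whose 6 markers summed to 4.0 to 8.7 CPM in controls and 16.5 to 28.2 CPM in CUS mice. No marker was at 0 in every mouse, and 2 of the 6 were lower in CUS mice. Over all nuclei summed the same list ran from 11.6 to 20.5 CPM in controls and from 21.2 to 294 CPM in CUS mice, again with 2 of 6 lower. In bulk its sums overlapped (2.65 to 6.78 CPM in controls and 1.95 to 3.20 CPM in CUS mice), and all 6 markers were lower in CUS mice. The part of this list in the values of the 8 genes was not tested. The study ran the nuclei in 2 batches, each with control and CUS mice, but the labels do not give the batch of a mouse, so no within-batch value was computed. Its methods report a marked effect of batch on differential expression and include batch in the model. The fits of nuclei here have no batch term, so their SEs and FDRs do not account for it.

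Outside layer 2/3 the nuclei come from the same 8 mice, so these values are not independent of the choice of genes. Across the 24 other classes, none of the 109 pairs of gene and class that passed the UMI minimum passed an FDR of 0.2 in edgeR's quasi-likelihood fit, beside 0.0741% of all 110595 pairs, and 11 had an unadjusted p under 0.05 (5.71% of all pairs). DESeq2 also called none, and the likelihood ratio test called 1, Atad2 in layer 4 nuclei (0.193% of all pairs). The groups did not overlap in 2 of the 109 pairs, Atad2 in the Ndst4 class and Atad2b in the Tshz2-led class (1 to 22 UMIs per CUS mouse). Both were lower, beside 3.23% of all pairs (1.69% lower and 1.54% higher). Of the 109 pairs, 100 were over the minimum in both groups, 4 in controls alone, among them Atad2 in the Ndst4 class, and 5 in CUS mice alone. Atad2 gave 4 of the 11 low p-values. Passing through 1 group favours a difference, so nothing is read from these counts.

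Atad2 passed the minimum in 5 other classes, all excitatory, with a lower CUS mean in each. In the Ndst4 and Galnt14-led classes it was over the minimum in controls alone, so that passing favoured a lower CUS mean there. Its UMIs were at 16.4 and 16.9% of the number of nuclei in controls, against 8.18 and 9.41% in CUS mice. Over all 24 classes, whether or not it passed, its mean was lower in CUS mice in 20, and the classes share the same mice. In layer 4 nuclei it measured 87.8 ± 13.6 CPM in controls and 59.1 ± 11.5 CPM in CUS mice (SD, n = 4 each), a log2 fold change of -0.60 ± 0.18 (SE, FDR = 0.295, edgeR). In the Ndst4 class it was 55.9 ± 11.2 CPM in controls and 30.3 ± 7.28 CPM in CUS mice (SD), a log2 fold change of -0.81 ± 0.25 (SE). The Galnt14-led class (-0.70 ± 0.27) and layer 5/6 nuclei (-0.60 ± 0.27) had values of similar size, while claustrum-like nuclei had -0.17 ± 0.41 (log2 fold change and SE). In layer 6 nuclei, with 113 UMIs, the means were close, and the log2 ratio of mean CPM was -0.16. In the Cpne7-led class, with 67 UMIs, the mean was higher in CUS mice, with a log2 ratio of 0.62.

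Cdk9 passed the minimum in 4 other classes. In each, its UMIs were over 10% of the number of nuclei in CUS mice alone (10.9 to 12.8%, against 8.87 to 9.91% in controls). Passing thus favoured a higher CUS mean, and the direction in these classes is no support. The log2 fold changes were 0.61 ± 0.31 in the Galnt14-led class, 0.52 ± 0.26 in the Ndst4 class, 0.45 ± 0.36 in layer 5 nuclei and 0.42 ± 0.50 in claustrum-like nuclei (log2 fold change and SE). Its mean CPM was higher in CUS mice in 21 of all 24 classes and in all 12 excitatory ones, which share the same 8 mice and overlap in their values. In layer 4 nuclei, CUS mice 1 and 2 were at 82.1 and 61.1 CPM while CUS mice 3 and 4 were at 30.3 and 34.3 CPM, against 56.6 and 51.8 CPM in controls 1 and 4 and 33.5 and 36.6 CPM in controls 2 and 3. Controls 1 and 4 and CUS mice 1 and 2 were thus the higher mice of their groups. The labels do not give a mouse's batch, and its part in this was not tested.

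**Figure D3:**
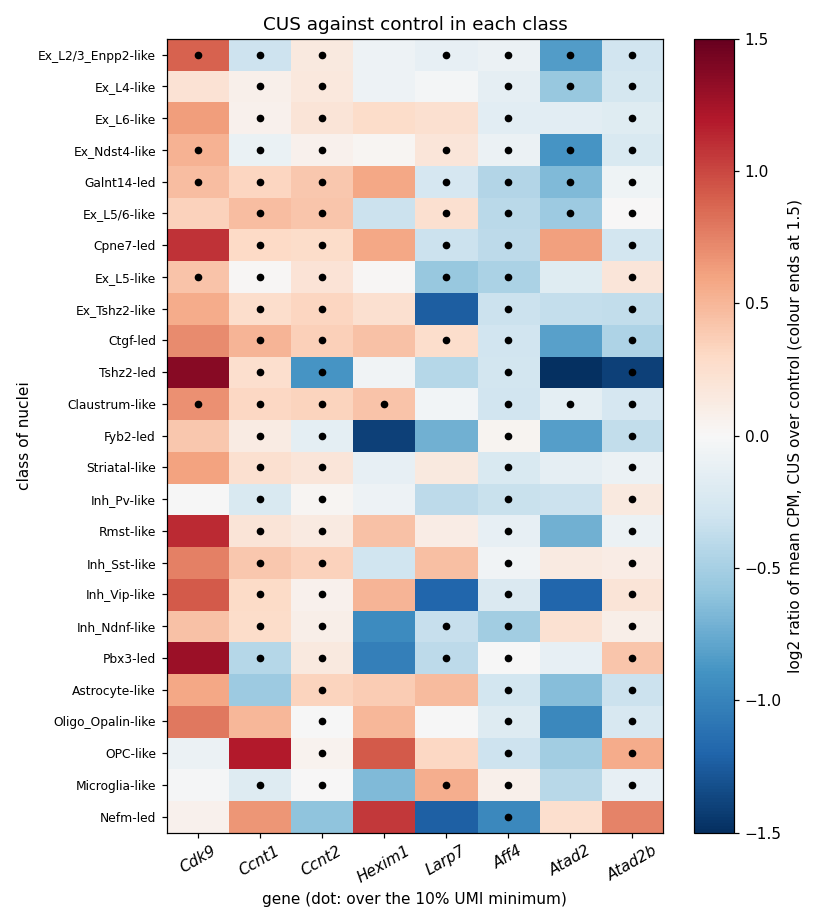
Log2 ratio of mean CPM, CUS over control, for the 8 genes in 25 classes of nuclei (colour ends at 1.5 in either direction); dots mark pairs that passed the UMI minimum. Cdk9 is mostly red, and Aff4 and Atad2 mostly blue. Most of the strongest colours are in pairs without a dot, where few UMIs were counted. Atad2b in the Tshz2-led class is a strong colour with a dot, although CUS mice 1 to 4 had 3, 4, 1 and 22 UMIs. Controls 1 to 4 had 7, 55, 15 and 14 UMIs there.

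Aff4, abundant enough to pass in all 24 classes, was lower in CUS mice in 23, with log2 fold changes from -0.70 to 0.06. None was called, and 3 had an unadjusted p under 0.05. Summed over all nuclei, Aff4 had 243, 301, 322 and 218 CPM in controls and 155, 187, 308 and 270 CPM in CUS mice, a log2 fold change of -0.24 ± 0.20 (SE, FDR = 0.678, edgeR). It ran from -0.41 without CUS mouse 3 to -0.09 without CUS mouse 1, and was -0.14 without control mouse 3 and -0.15 without CUS mouse 2. Control mice 1 and 4 and CUS mice 1 and 2 were the low ones in each group, and CUS mice 3 and 4 lay within the range of controls 1 to 3. Ccnt2 showed the opposite arrangement, with 167 and 159 CPM in control mice 1 and 4 and 189 and 179 CPM in CUS mice 1 and 2, against 132 and 124 CPM in control mice 2 and 3 and 138 and 152 CPM in CUS mice 3 and 4. The SD within each group was larger than the difference between the group means for both genes. The batch of each mouse is not in the labels, and its part in this spread was not tested.

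The P-TEFb cyclins and Atad2b also passed in most classes. Ccnt2 was higher in the CUS mean in 20 of 23 classes (log2 fold changes from -0.44 to 0.42) and Ccnt1 in 16 of 20 (-0.20 to 0.55), opposite to its value in layer 2/3 nuclei. That contrast between classes was not tested. Atad2b was lower in 15 of 23 classes (-0.93 to 0.57), and Larp7 in 5 of 9 (-0.33 to 0.42), of which 2 passed through controls alone. Hexim1 passed in claustrum-like nuclei alone, and there through CUS mice alone, so no direction is given. Its UMIs were at 12.4% of the number of nuclei in CUS mice and 8.49% in controls.

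Summing all nuclei gave the rare transcripts more UMIs. None of the 4 genes that passed the minimum there (Ccnt1, Ccnt2, Aff4 and Atad2b) was called by the quasi-likelihood test, DESeq2 or the likelihood ratio test, beside 0.0199% of 5018 genes in the first of these, and 0 had an unadjusted p under 0.05, beside 8.01% of genes. Without the minimum, the quasi-likelihood test called Cdk9 and Atad2, beside 0.847% of 36464 genes. Since this sum includes layer 2/3 nuclei, the other 23007 nuclei were also summed alone. There, Atad2 had 44.1, 42.2, 40.1 and 34.5 CPM in controls and 28.5, 28.7, 34.1 and 30.6 CPM in CUS mice, and all CUS mice were below all controls. Groups did not overlap for 4.51% of the 4941 genes over the minimum in this sum (2.51% lower) and for 2.82% of 35858 genes without it (1.05% lower). The log2 fold change of Atad2 was -0.43 ± 0.14 (SE) without the minimum, which it did not pass (FDR = 0.266, edgeR). Cdk9 had 32.1, 25.4, 25.3 and 31.2 CPM in controls and 57.2, 46.7, 28.9 and 31.9 CPM in CUS mice, so that CUS mice 3 and 4 lay within the control range, above controls 2 and 3. Its group means were 28.5 ± 3.65 CPM in controls and 41.2 ± 13.2 CPM in CUS mice (SD, n = 4 each). Its log2 fold change was 0.52 ± 0.14 (SE, FDR = 0.0869 without the minimum, edgeR), beside 0.647% of 35858 genes called at this looser FDR of 0.2. Cdk9 did not pass the minimum, so its SE and FDR come from the fit without it, and not directly from these SDs. Of the genes fitted both ways, Aff4 had an SE of 0.19 with the minimum and 0.12 without it. The SEs were 0.10 and 0.12 for Ccnt1, 0.12 and 0.12 for Ccnt2, and 0.11 and 0.12 for Atad2b. With the minimum, 0.0202% of genes were called, and none of the 4 of these genes that passed it (Ccnt1, Ccnt2, Aff4 and Atad2b).

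**Figure D4:**
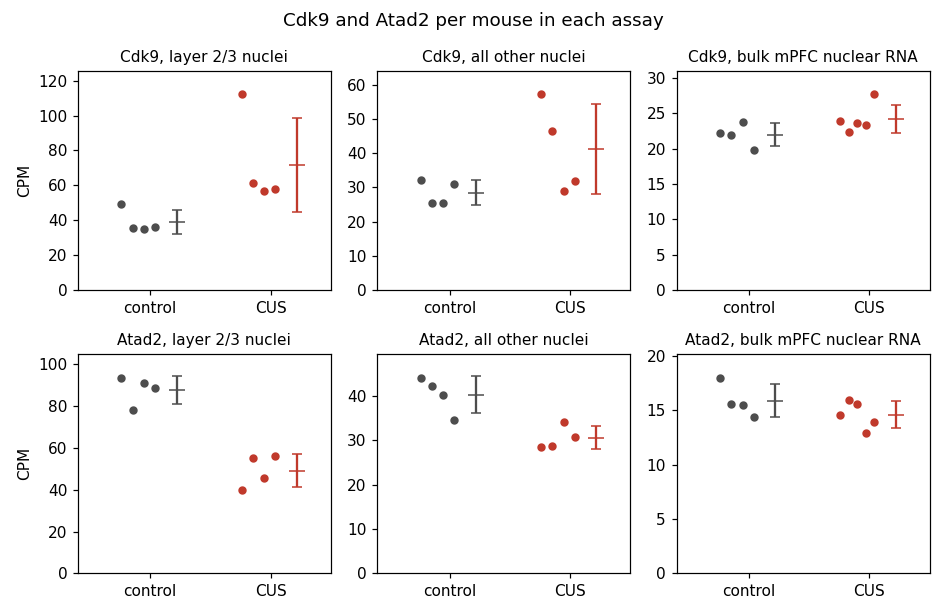
CPM of Cdk9 and Atad2 per mouse in layer 2/3 nuclei, in all other nuclei summed and in bulk mPFC nuclear RNA, with mean ± SD. The gap between groups is widest in layer 2/3 nuclei, whose values chose these genes. In bulk the log2 fold changes are 0.14 for Cdk9 and -0.12 for Atad2, with overlapping points.

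Levels across classes are a description, since clusters were made from these nuclei, and CPM compares 1 gene across classes. The genes tested held 69.3% of the UMIs in oligodendrocyte precursor-like nuclei and 91.4% in layer 5 nuclei, so the levels in this paragraph are per 1e6 of all UMIs of a class, without TMM scaling, and are lower than the CPM above. Over all 8 mice, Cdk9 had its highest mean in layer 2/3 nuclei (48.8 ± 22.8 CPM, SD), which includes the CUS values that chose the gene. In the 4 control mice alone, layer 2/3 nuclei (34.2 ± 5.76 CPM, SD) lay below layer 4 nuclei (37.6 ± 8.93 CPM), microglia-like nuclei (37.0 ± 34.5 CPM, from 15 UMIs over 8 mice) and the Galnt14-led class (35.0 ± 10.7 CPM), within their SDs. Its 8-mouse class means ran from 14.2 to 31.3 CPM in inhibitory and striatal classes. Atad2 had a steeper profile, with 62.5 ± 16.2 CPM in layer 4 and 60.0 ± 18.8 CPM in layer 2/3 nuclei, which includes the CUS values that chose the gene (74.2 ± 11.8 and 76.7 ± 6.13 CPM in controls alone), against 5.03 (Pbx3-led, 4 UMIs) to 18.8 CPM in inhibitory and striatal classes. Similar means in the Nefm-led class (62.5 ± 70.5 CPM) and in oligodendrocyte precursor-like nuclei (57.5 ± 29.8 CPM) rested on 11 and 29 UMIs. Atad2 was also low in some excitatory classes, with 16.6 CPM in layer 5 and 19.0 CPM in layer 6 nuclei. The median over excitatory class means was 21.3 CPM. Atad2b had another order, highest in astrocyte-like (263 ± 65.4 CPM), Opalin oligodendrocyte-like and precursor-like nuclei and lowest in the Galnt14-led class (88.5 ± 12.9 CPM). Ccnt2 stood out in claustrum-like nuclei at 320.0 ± 60.6 CPM, while the next class mean was 151 CPM. Aff4 varied least, by 1.53-fold from the highest to the lowest class mean. Of the 24 pairs of neighbours in each gene's order, 24 lay within 1 SD of each other for 7 genes and 22 for Ccnt2, so neighbours could mostly not be separated.

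**Figure D5:**
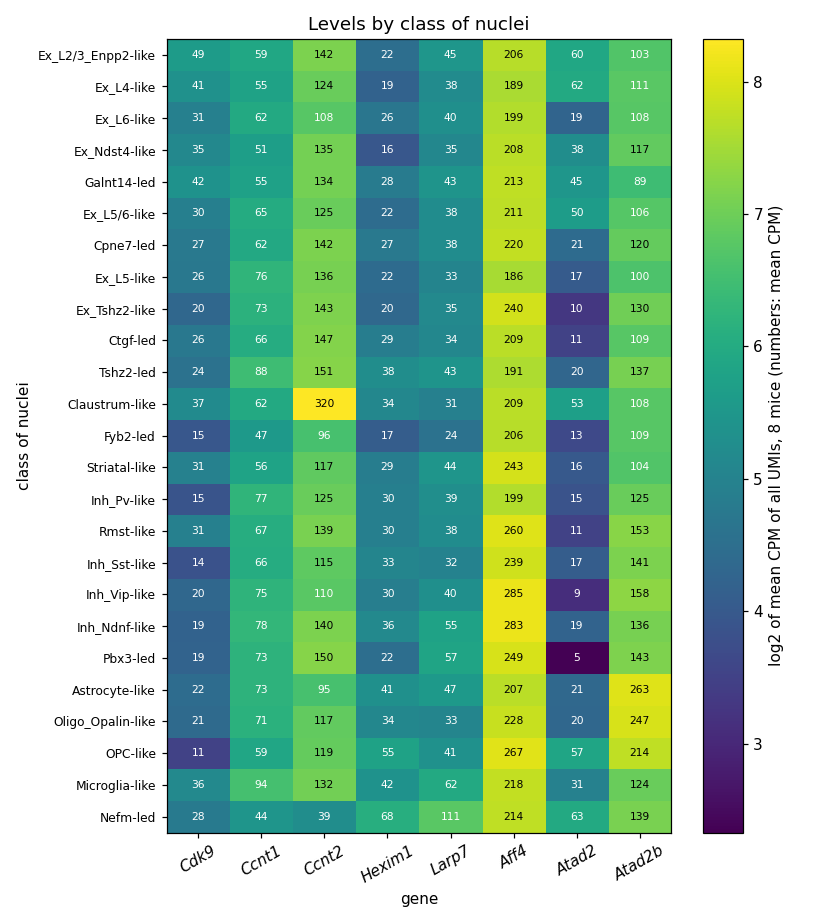
Mean CPM (per 1e6 of all UMIs of a class) over 8 mice of the 8 genes in 25 classes of nuclei, printed in each cell and coloured on a log2 scale. Cdk9 is highest in layer 2/3, Galnt14-led and layer 4 nuclei, Atad2 in Nefm-led (11 UMIs), layer 4 and layer 2/3 nuclei, Atad2b in astrocyte-like and oligodendrocyte-lineage classes, and Ccnt2 in claustrum-like nuclei.

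Over these 25 classes, the genes whose levels were most like those of Cdk9, by Pearson correlation of log2(mean CPM + 1) among 10646 genes, were Lyzl4 (r = 0.81), Wdr17 (0.81), Vipr1 (0.80), a receptor for vasoactive intestinal peptide, Nsun2 (0.80), an RNA methyltransferase, and Rnf8 (0.80), a ubiquitin ligase of the DNA damage response. For Atad2 they were C1ql3 (r = 0.78), a secreted protein of synapses, Marc2 (0.74), Rnf115 (0.73), Tmem14a (0.73) and Herc6 (0.72). With the UMIs of the genes tested as denominator, 0 of these 5 genes were among the 5 most like Cdk9 and 4 of 5 among those most like Atad2, so the names for Cdk9 depended on the scale. Cdk9 and Atad2 correlated with each other at r = 0.47, and Cdk9 with its cyclins at r = -0.21 for Ccnt1 and 0.20 for Ccnt2. The points share libraries and differ in depth.

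Among the wider elongation genes (6 lists with 52 entries, 50 tested in bulk), 2 were higher and 1 was lower at an FDR of 0.05 in bulk, beside 3.29% of all genes. Tcea2, an elongation factor of the TFIIS family that rescues stalled polymerase, rose from 34.6 ± 1.46 to 44.8 ± 3.20 CPM (SD, n = 4 and 5), a log2 fold change of 0.37 ± 0.06 (SE, FDR = 0.0119, edgeR). Aff3, of the same family as Aff4, rose from 466 ± 60.8 to 606 ± 12.0 CPM (log2 fold change 0.38 ± 0.08, FDR = 0.0216), in the direction opposite to the value of Aff4. Cdk13, a kinase of the polymerase tail that acts later in elongation, fell from 165 ± 2.99 to 142 ± 6.71 CPM (log2 fold change -0.21 ± 0.05, FDR = 0.043). When 1 mouse was left out, Tcea2 stayed past the threshold each time, Aff3 did not without control mouse 2 or CUS mouse 4 or 5, and Cdk13 did so only without control mouse 1 or 3 or CUS mouse 3. Cdk13 was also not called with no filter on low counts, and with the replicate block Aff3 alone was. The median log2 fold change of the 50 genes was -0.03, against 0.01 over all genes tested. By list, 1 of 10 super elongation complex genes, 1 of 9 elongation factors and histone chaperones and 1 of 6 kinases of the polymerase tail were called. The gene of the 7SK RNA itself, Rn7sk, was listed but was not among the bulk genes. None of the 12 P-TEFb and 7SK genes tested, 7 pausing factors or 6 PAF1 complex genes was called. At an unadjusted p under 0.05, 3 of these 25 passed, and 11 of all 50, beside 21.5% of all genes. Of the 5 HIRA complex genes tested none was called. Of 12 proliferation genes, 8 were lower and 4 higher in CUS mice, and Mki67 alone was called, near the threshold (FDR = 0.0488, edgeR). It was lower, at 2.02 ± 1.29 CPM in controls and 0.67 ± 0.17 CPM in CUS mice (SD). Its values ran from 0.88 to 3.42 CPM in controls and from 0.45 to 0.86 CPM in CUS mice. Its call was not followed over other tests or left-out mice.

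In layer 2/3 nuclei, 29 of the same elongation genes were tested and 1 was past an FDR of 0.2, beside 0.875% of all genes. That gene was Cdk9, which this same comparison chose. The median log2 fold change was -0.02, against 0.01 over all 5370 genes. Aff3 and Cdk13 were tested there and not called, Tcea2 did not pass the UMI minimum, and a difference between the assays was not tested. None of the 13 proliferation genes passed the UMI minimum in these nuclei, where Atad2 had 45 to 157 UMIs per mouse.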

How the data were processed

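Bulk nuclear RNA of mPFC and sNucDrop-seq nuclei of neocortex were analysed from deposited tables. The authors deposited raw read counts per gene (STAR, mm10, unique reads; whether introns were counted is not given in the sources used here) and UMI counts per gene and barcode (exonic and intronic reads, mm10). Their notes also name edgeR and Seurat. The methods give collection after the last behavioural test for bulk, and the labels 24 h after the final stressor.

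Bulk counts passing filterByExpr were tested with edgeR 4.0.16 (TMM, quasi-likelihood test, Benjamini-Hochberg FDR 0.05). Kept nuclei had between 600 and 5000 genes, less than 5% of UMIs from mitochondria and a Scrublet score (scanpy 1.11.5) no higher than 0.2; the last step removed 15.2% of the remaining nuclei as doublets. They were clustered with Seurat 5.3.0 (2000 variable genes, 50 components, resolution 1). Clusters were named from fixed markers, or otherwise by their leading gene. UMIs were summed per mouse and class of over 200 nuclei, and genes with UMIs over 10% of the number of nuclei were tested likewise at an FDR of 0.2. CPM use the counts of tested genes with TMM factors, and levels across classes use all UMIs, chosen after seeing the data. DESeq2 was 1.42.0. Mice are separate samples, and each value carries counting error at the depths given. The 16 replicate pairs of bulk libraries differed beyond counting noise (chi-square per degree of freedom 2.88 to 24.4). Fits were tested on simulated data.

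Members, lists and tests were chosen with earlier results of these data known. Named genes were the 8 members, list genes past the FDR, the 5 genes most like Cdk9 and Atad2 in level (at least 10 CPM on average) and genes overlapping a member. Promoters are from RefSeq, GRCm38.p6, and exon lengths from GENCODE vM21.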

Additional observations from a re-analysis of the deposited data

Results flagged for a closer look

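Of 48 groups of mice tested for a single distant value (8 genes in bulk, layer 2/3 nuclei and all nuclei, each group apart), 4 had a mouse whose gap to its nearest neighbour exceeded Dixon's 95% value, and chance gives about 1 in 20. All 4 were in layer 2/3 nuclei. For Cdk9, control mouse 1 was at 49.4 CPM and CUS mouse 1 at 112 CPM, each the highest of its group. Ccnt1 in CUS mouse 3 was at 47.4 CPM, below the other CUS mice. Hexim1 in control mouse 1 was at 37.4 CPM, from 28 UMIs. With CUS mouse 1 left out, the log2 fold change of Cdk9 in layer 2/3 nuclei was 0.60 instead of 0.91.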

How the results depend on the processing

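In bulk, 0 of the 8 genes were called in the main test (3.29% of all genes), 1 with the likelihood ratio test (7.23%) and 2 with DESeq2 (8.27%). Without TMM factors 2 were called, and 0 to 2 when 1 mouse was left out. The calls were Atad2b, or Atad2b with Aff4. Among the fits with 1 mouse left out, only those without control mouse 3 (2 calls) or CUS mouse 2 (1 call) had any. For fits without TMM factors or with 1 mouse left out, no share over all genes is given, so nothing is read from their counts. The bulk log2 fold change of Larp7 ran from -0.15 to 0.02 (-0.05 in the main test) when 1 mouse was left out, being above 0 without control mouse 1 (0.0059), control mouse 4 (0.017) or CUS mouse 1 (0.021). In layer 2/3 nuclei Larp7 (-0.19 to 0.04) and Aff4 (-0.29 to 0.01) also changed sign when 1 mouse was left out. No other bulk direction changed. Over all nuclei, leaving out CUS mouse 1 took Atad2b from -0.16 to -0.09 and Ccnt2 from 0.18 to 0.11, and Ccnt1 (0.07) ran from 0.03 without CUS mouse 2 to 0.13 without CUS mouse 3. In layer 2/3 nuclei, 1 or 2 of the genes were called when 1 mouse was left out, and 2 under every other setting run; the log2 fold change of Cdk9 ran from 0.60 to 1.01 and that of Atad2 from -0.92 to -0.73 over these. In other classes, 1 pair was called with the likelihood ratio test and 0 to 1 with 1 mouse left out (1 without CUS mouse 2). Over all nuclei, 2 genes were called with no filter, 1 when layer 2/3 nuclei were also left out, which was tried after seeing the data, and 0 with the filter. Cdk9 and Atad2 did not pass that filter. Of the elongation genes, 5 were called in bulk with DESeq2 and 2 (Aff3 and Tcea2) with no filter, against 3 in the main test, and 1 to 7 with 1 mouse left out (1 without control mouse 2, CUS mouse 4 or CUS mouse 5, 7 without control mouse 3). The cause of these changes was not tested. Class levels moved by over 1 SD in 1 of 168 pairs of gene and class without the doublet filter, in 1 of 160 with at least 1000 genes per nucleus, and in 17 of 200 with the UMIs of tested genes as denominator, a scale first used and replaced by all UMIs after seeing the data.

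Correlations did not show mice of equal replicate number as pairs. Same-number correlations ran from -0.01 to 0.23 in bulk and -0.20 to 0.26 in layer 2/3 nuclei, where 2 of 4 and 1 of 4 controls matched their own number best. Whether the numbers carry shared variance was not tested, and bulk CUS mouse 5 has no control of its number. With the replicate block, 238 genes were called in bulk against 606, 135 in layer 2/3 nuclei against 47, 1 elongation gene in bulk, and 0 and 2 of the 8 genes in bulk and layer 2/3 nuclei. Transcripts such as Hexim1 and Larp7, with at most 197 and 212 bulk reads per mouse, limit what could be detected.

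Over all genes, calls in bulk numbered 606 in the main test, 1330 with the likelihood ratio test and 1402 with DESeq2, and in layer 2/3 nuclei 47, 147 with the likelihood ratio test and 109 with no filter.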
